A study of Mus musculus with 9 samples.

Results

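The cells described here are those that carry the label MNC, for monocyte, in the cell type annotation deposited with single-cell transcriptomes of the mouse brain, 385 of 72543 cells. Membership was read from that annotation alone, which its makers had drawn up from the expression of the same cells. The labels place 9 libraries in 3 groups of 3, all from C57BL/6J male mice whose circulation was flushed with buffer through the heart before the brain, by the study's methods without the cerebellum, was dissociated. The groups were young adult (2 to 3 months old), aged (18 to 20 months old) and exenatide-treated aged (18 to 20 months old, given the GLP-1 receptor agonist exenatide intraperitoneally at 5 nmol/kg/day from 17 to 18 months for 4 to 5 weeks). Libraries carry the numbers 1, 2 and 4 in each group. A mouse number of 3 stands beside every one of them, without a statement of whether a library is 1 animal or a pool. The study's text gives another number of mice for the young adult and the aged group. P-values below therefore measure the spread between libraries, part of which may be technical. A vehicle for the aged libraries is not given in the labels.

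Libraries held 938 to 15019 cells, and MNC cells were few in each. The young adult libraries 1, 2 and 4 held 17, 27 and 79 of them, the aged libraries 4, 26 and 37, and the exenatide-treated aged libraries 44, 32 and 119. Aged library 1, with 4 MNC cells, was left out wherever counts were summed per library, so those comparisons rest on 2 aged libraries. The summed MNC counts ran from 38045 unique molecular identifiers (UMIs, 1 per captured RNA molecule) in young adult library 1 to 244623 in exenatide-treated aged library 4. The median MNC cell held 1502 UMIs, against 1461 in macrophages (MAC, 1239 cells) and 1296 in microglia (MG, 19494 cells). Between libraries, 2209 cell barcodes recurred among all cells and 0 among the MNC cells.

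Monocytes are bone marrow-derived phagocytes of the blood. Classical monocytes are Ly6C-high and carry CCR2, the receptor with which they answer CCL2 and leave the marrow and enter tissue, whereas nonclassical monocytes are Ly6C-low, depend on the nuclear receptor Nr4a1 and patrol the vessel wall. Neutrophils come from the same marrow progenitors, pack their granules with antimicrobial proteins in a fixed order as they mature, and hold large amounts of the calcium-binding pair S100A8 and S100A9. Microglia and border macrophages, in contrast, are resident cells of the brain and its coverings, and few leukocytes of the blood are found in a perfused healthy brain.

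The 4 genes by which the cells can be checked were all higher in MNC and near 0 in both resident types. *Plac8*, a gene of monocytes and other leukocytes, had levels of 2103, 893 and 1331 CPM (UMIs of the gene scaled to 1000000 UMIs of the summed cells of a library) in young adult libraries 1, 2 and 4, 1261 and 1439 in aged libraries 2 and 4, and 2055, 1711 and 1660 in the exenatide-treated aged libraries. The young adult range covered the aged values and overlapped the exenatide-treated aged ones, which all lay above the aged. No MAC cell held a *Plac8* UMI (0 of 1239 cells, which allows a share of cells with a UMI of up to 0.242%). *Ccr2* was lower, at 78.9, 145 and 152 CPM in the young adult, 51.5 and 140 in the aged and 137, 95.1 and 262 CPM in the exenatide-treated aged libraries. *S100a8* spanned a far wider range, with young adult levels of 35800, 21280 and 24234 CPM, aged levels of 7000 and 68856, and levels of 8619, 47.5 and 27119 in exenatide-treated aged libraries. The groups overlapped for *Ccr2* and *S100a8*, and exenatide-treated aged library 2 was nearly devoid of *S100a8*, with 2 UMIs among its 32 cells. *S100a9* followed the same order within the aged libraries (4658 and 28833 CPM) and was at 0 UMIs in exenatide-treated aged library 2, where the floor of 3 counts is 71.3 CPM.

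**Figure D1:**
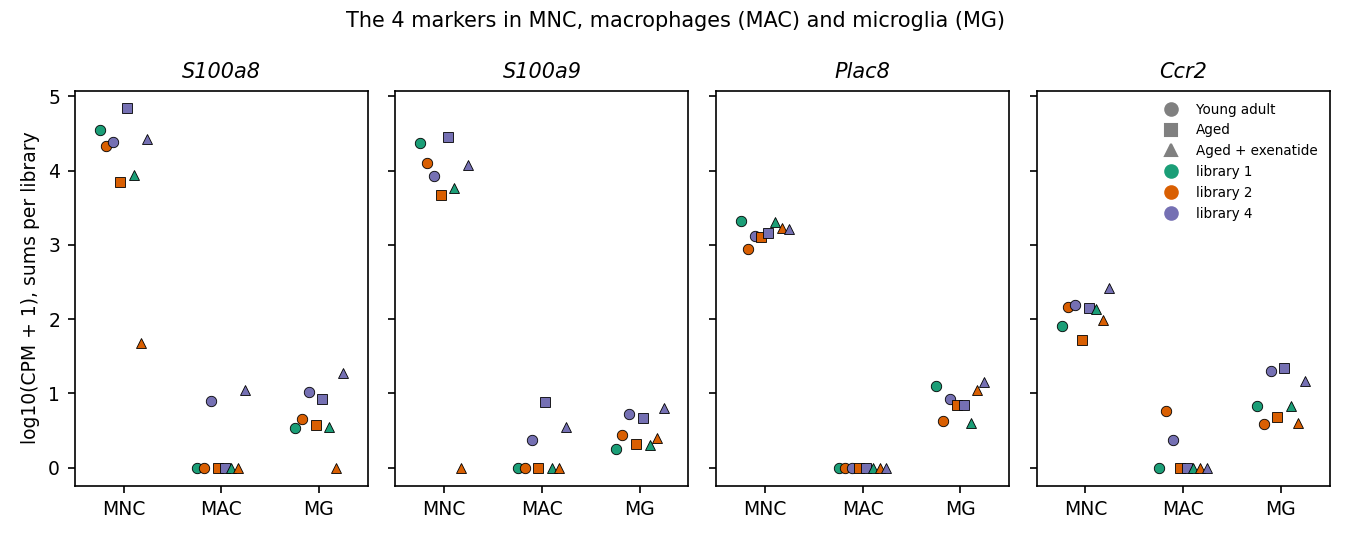
*S100a8*, *S100a9*, *Plac8* and *Ccr2* in MNC, MAC and MG. Each point is 1 library, as log10(CPM + 1) of the counts summed over the cells of a type, with symbols for the group and colours for the library number; *Plac8* varied least among the MNC sums, whereas *S100a8* in MNC was at 47.5 CPM in exenatide-treated aged library 2.

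By single cell, *Plac8* was found in 56.9% of MNC cells (95% exact binomial interval 51.8 to 61.9), *S100a8* in 25.7% (21.4 to 30.4), *S100a9* in 23.9% (19.7 to 28.5) and *Ccr2* in 14.8% (11.4 to 18.8). Intervals and floors cover counting error only. The shares in astrocytes and endothelial cells, which should lack these genes, were 0.126% and 0.0882% for *Plac8*, and 0.920% and 0.779% for *S100a8*, at median depths of 1145 and 1395 UMIs. With every cell thinned to 500 UMIs the MNC shares were 40.3% for *Plac8*, 23.9% for *S100a8*, 22.1% for *S100a9* and 7.01% for *Ccr2*. *S100a8*, *S100a9* and *Ccr2* were thus each found in a minority of the MNC cells, and the S100 genes at very high levels there. A 3′ UMI count does not grow with the length of the transcript, so levels of different genes can be set side by side.

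*S100a8* and *S100a9* are neighbours on chromosome 3 (build GRCm38, GENCODE release M21), at 90668978 to 90670035 on the plus strand and 90692632 to 90695721 on the minus strand. Of the 91 cells with 2 or more *S100a8* UMIs and the 88 with 2 or more of *S100a9*, 87 were the same cells. *Ngp*, which encodes a neutrophil granule protein (chromosome 9, 110419747 to 110423012, plus strand), was found in 38 cells and *Camp*, the gene of the cathelicidin antimicrobial peptide, in 36 (1 or more UMI), and 34 held both. Because these genes were detected together, the 150 bases before the annotated start of 3 of them are shown, from RefSeq on build GRCm38.p6, at chr3:90668828-90668977 (*S100a8*), chr3:90695722-90695871 (*S100a9*, minus strand) and chr9:110419597-110419746 (*Ngp*). Capitals mark matches on either strand to TTNNGNAA, letters of the kind bound by C/EBP factors, or to GAGGAA, letters of the kind bound by PU.1.
S100a8: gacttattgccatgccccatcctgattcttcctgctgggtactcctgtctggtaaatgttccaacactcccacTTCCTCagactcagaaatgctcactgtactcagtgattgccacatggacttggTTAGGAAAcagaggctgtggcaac
S100a9: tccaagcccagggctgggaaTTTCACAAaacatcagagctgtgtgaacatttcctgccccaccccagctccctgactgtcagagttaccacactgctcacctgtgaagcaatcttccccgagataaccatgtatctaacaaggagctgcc
Ngp: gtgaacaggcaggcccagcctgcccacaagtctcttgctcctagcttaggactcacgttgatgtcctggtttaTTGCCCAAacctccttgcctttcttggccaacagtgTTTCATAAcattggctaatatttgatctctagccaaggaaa
The *S100a8* window held 1 match to each motif, the *S100a9* window 1 match to TTNNGNAA and the *Ngp* window 2, and no matches overlapped. Of 32851 RefSeq promoters, 22.7% held TTNNGNAA and 14.5% held GAGGAA in the 150 bases before the start. The matches are letters, not sites at which binding was measured.

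To ask how the MNC cells differed from the resident phagocytes, mean CPM over the 8 libraries was set beside that of MAC and MG as a description, since the annotation had used these genes. Among 1303 genes with a mean of 100 CPM or more in MNC, 51 were at 10 or more times the higher of the MAC and MG means. The leading 15 were *S100a9*, *S100a8*, *Camp*, *Ngp*, *Retnlg*, *Lcn2*, *Wfdc21*, *Ltf*, *Slpi*, *Hp*, *Chil3*, *Plac8*, *Top2a*, *Itgal* and *Ly6c2*. *Retnlg*, which encodes a resistin-like protein of neutrophils, averaged 1738 ± 2056 CPM (SD, n = 8 libraries) in MNC, against 0.656 ± 1.22 in MAC and 0.659 ± 0.642 in MG. *Ltf*, encoding lactoferrin, averaged 591 ± 580 CPM in MNC and was at 0 in MAC. For both genes the SD was about as large as the mean. Libraries ran from 0 to 6361 CPM for *Retnlg* and from 0 to 1761 for *Ltf*. *Hp*, encoding haptoglobin, *Plac8*, *Top2a*, *Itgal* and *Ly6c2* were in contrast higher in the MNC sum than in every MAC and MG sum, and so was *S100a8*.

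Whole marker lists were compared in the same way. All 10 nonclassical monocyte genes and 9 of 10 classical monocyte genes had a higher mean in MNC than in both resident types, with list sums of 1854 and 3045 CPM in MNC, 375 and 730 in MAC, and 144 and 44.3 in MG. The 16 neutrophil genes summed to 47180 CPM in MNC against 59.4 in MAC and 144 in MG, with 15 of 16 highest in MNC. All 10 cell cycle genes were highest in MNC as well, at 4889 CPM in sum against 998 in MAC and 1014 in MG. So were 6 of 6 astrocyte genes (1023 CPM in sum against 296 in MAC and 487 in MG). The same held for 6 of 6 mural genes (381 against 245 and 126) and 7 of 8 endothelial genes (3989 against 3421 and 1407). A higher mean in MNC was thus not limited to lists of blood cells. Of the 12 macrophage genes, *Cd163*, *Lyve1*, *Cbr2* and *Folr2* were at 0 in MNC, and the sum was 1828 CPM against 9459 in MAC, nearly all of it *Cd74* (1596 ± 1004 CPM in MNC), the invariant chain of MHC class II, which is not limited to macrophages. The 12 microglial genes were all detected, at 5212 CPM in MNC against 21874 CPM in MG.

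Genes of the resident types were low but unevenly so. *Pf4*, a platelet and macrophage chemokine, averaged 3403 ± 877 CPM in MAC and 14.2 ± 15.7 in MNC, and *Ms4a7*, a marker of border macrophages, 956 ± 241 and 8.87 ± 15.8. *Ccl8*, *Cd209f*, *Cd209g*, *Cbr2* and *Folr2* had 0 UMIs in MNC, where 3 counts over all libraries are 4.31 CPM, so that MAC was at least 132-fold higher for *Ccl8* and at least 173-fold higher for *Cd209f*. Microglial genes differed far less. *Siglech*, a lectin gene of microglia and plasmacytoid dendritic cells, averaged 779 ± 92.8 CPM in MG and 126 ± 78.7 in MNC, and *Sall1*, a transcription factor that defines microglia, 132 ± 34.9 and 17.7 ± 16.5. The largest MG to MNC ratio among the genes with 100 CPM or more in MG was 9.95, for the proton channel gene *Hvcn1*.

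The MNC cells fell into several lineages when grouped by their own expression (Ward clustering into 8 sub-clusters). Sub-clusters were given a cell type name only where listed markers led them, and their leading genes are the means by which they were found, not separate findings. Of the 385 cells, 177 (46.0%) were monocyte-like and 55 (14.3%) neutrophil-like, while 71 (18.4%) were led by microglial genes and 82 were in 3 sub-clusters that received no name. The literal meaning of the label thus covered 46.0% of the cells, and they are called MNC cells here for their annotation.

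**Figure D2:**
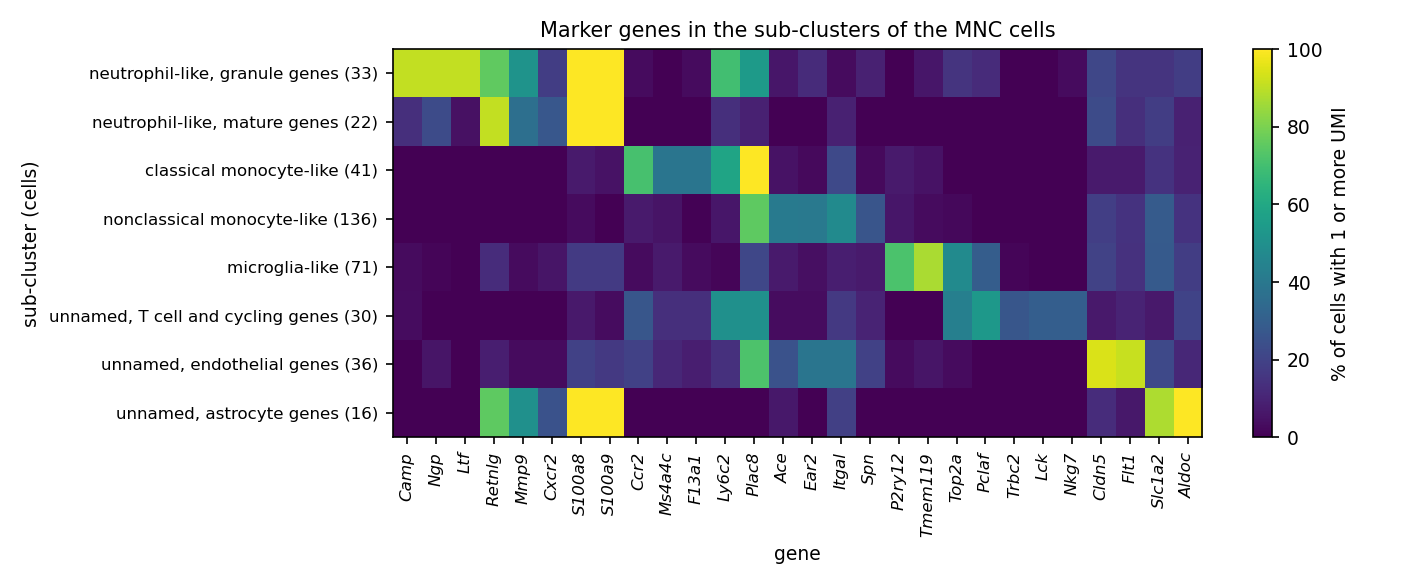
Share of cells (%, colour) with 1 or more UMI of each gene (columns) in the 8 sub-clusters of the MNC cells (rows, cell numbers in parentheses). *S100a8* and *S100a9* were found in all cells of both neutrophil-like sub-clusters and of the sub-cluster with astrocyte genes, *Plac8* in all classical monocyte-like cells, and *Tmem119* in 87.3% of microglia-like cells.

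Monocyte-like cells formed 2 sub-clusters. The nonclassical monocyte-like sub-cluster (136 cells) was led by *Cd36*, a scavenger receptor, *Ear2*, an eosinophil-associated ribonuclease, *Ace*, angiotensin-converting enzyme, and *Adgre4*, *Spn* and *Itgal*, surface receptors of patrolling monocytes. *Itgal* was found in 47.8% of these cells, *Ace* in 41.2% and *Ear2* in 40.4%, and *S100a9* in 0%. The classical monocyte-like sub-cluster (41 cells) was led by *Ccr2*, in 70.7% of cells, with *Ms4a4c* and the coagulation factor gene *F13a1* in 39.0% each, and *Ly6c2* was in 58.5%. *Lyz2*, the lysozyme gene of phagocytes, was in 97.6% of classical and 95.6% of nonclassical monocyte-like cells. In the nonclassical sub-cluster the nonclassical list summed to 4169 CPM and the classical list to 3531. The sums were 980 and 10693 CPM in the classical sub-cluster, so the former was not devoid of classical genes. Nonclassical monocyte-like cells thus named outnumbered classical ones, and they were shallower, at a median of 971.5 against 1748 UMIs.

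Neutrophil-like cells were also of 2 kinds. The first (33 cells) was led by granule genes: *Camp* and *Ngp* in 90.9% of cells each, at 36590 and 36576 CPM, *Ltf* in 90.9% and *Lcn2*, encoding the iron-sequestering lipocalin 2, in all cells, with *Cebpe*, the transcription factor of granule formation, in 27.3%. The second (22 cells) carried genes of mature neutrophils, with *Retnlg* in 90.9%, the chemokine gene *Cxcl2* in 59.1%, the gelatinase gene *Mmp9* in 36.4% and the chemokine receptor gene *Cxcr2* in 27.3%. *Camp* was found in 13.6% of the second kind and the interleukin-1β gene *Il1b* in 72.7%, against 9.09% of the first. Across all MNC cells, 36 held a UMI of *Camp* and 107 of *Il1b*, and 1 cell held both.

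The microglia-like sub-cluster (71 cells) was led by *Fcrls*, *Tmem119*, *Olfml3*, *Gpr34* and *P2ry12*, together with *Ccl12*, *Ccl4* and *Tnf*, genes of 2 chemokines and a cytokine. *Tmem119* was in 87.3% of its cells, the purinergic receptor gene *P2ry12* in 71.8%, and *Plac8* in 21.1%. Cell cycle genes ran high in it: 35 of 71 cells (49.3%) held UMIs of 2 or more of *Mki67*, *Top2a*, *Birc5*, *Pclaf*, *Ube2c* and *Cenpa*, against 15 of 30 cells in the unnamed sub-cluster with T cell genes, 6 of 33 (18.2%) in the neutrophil-like one with granule genes, and 0 of 136 nonclassical and 0 of 41 classical monocyte-like cells, and *Top2a*, the DNA topoisomerase of dividing cells, was in 47.9% of its cells. In the deposited clustering, 46 of its 71 cells were in cluster 28, in which 461 of 536 cells are annotated as neuronal restricted precursors, whereas 172 of the 177 monocyte-like cells were in cluster 31.

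Of the sub-clusters without a name, 1 (30 cells) was led by the T cell and natural killer cell genes *Trbc2*, *Nkg7*, *Lck* and *Lat*, each in 26.7% to 30.0% of cells, with the replication gene *Pclaf* in 53.3%. Most of its cells thus held no UMI of any 1 of these lymphocyte genes, and no lineage was assigned. A second (36 cells) joined endothelial genes with monocyte genes, *Cldn5*, a tight junction gene, in 94.4% and *Flt1* in 91.7% of cells beside *Plac8* in 72.2% and *Itgal* and *Ear2* in 38.9% each. The last (16 cells) joined astrocyte genes with those of mature neutrophils, the astrocyte enzyme gene *Aldoc* in 100% and the glutamate transporter gene *Slc1a2* in 87.5% beside *S100a8* and *S100a9* in 100%, *Il1b* in 93.8% and *Retnlg* in 75.0%. *Camp*, *Ngp* and *Plac8* were in 0% of these 16 cells. Whether 2 cells in 1 droplet gave these combinations was not tested.

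Counted gene by gene, without clustering, 161 MNC cells (41.8%) held UMIs of 2 or more classical monocyte genes, 185 (48.1%) of nonclassical, 96 (24.9%) of neutrophil, 143 (37.1%) of microglial and 12 (3.12%) of T cell genes. The same criterion was met by 0.400%, 1.08%, 0.487%, 98.6% and 0.0975% of MG cells. Endothelial cells met it in 21.3% for the nonclassical list and 21.4% for the microglial list, so those 2 shares in MNC include genes that brain endothelium also holds. The criterion for T cells was met by 0.0196% of endothelial cells. Of the 12 natural killer cell genes, 8 had a higher mean in MNC than in both resident types, led by *Ccl5* (258 ± 295 CPM, SD, n = 8 libraries) and *Nkg7* (81.9 ± 99.0), while *Ncr1*, *Klrb1c*, *Klra8* and *Prf1* were at 0, and 10 cells (2.60%) held 2 or more of them. Of the 13 B cell genes 6 were highest in MNC, but the first of them, *Igkc*, rested on 1 cell of aged library 2 with 407 of its 423 UMIs, and its median over libraries was 23.8 CPM against a mean of 251 in MG. *Ms4a1* and *Pax5* were among the 4 at 0. Platelet and erythroid lists reached 2 genes in 0.519% and 1.82% of cells.

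The make-up of the MNC cells varied strongly from library to library. Neutrophil-like cells numbered 3 of 17, 4 of 27 and 8 of 79 in the young adult libraries 1, 2 and 4, 0 of 4, 1 of 26 and 14 of 37 in the aged libraries, and 2 of 44, 0 of 32 and 23 of 119 in the exenatide-treated aged libraries. Aged library 4 was the highest, at 37.8%, and the next aged library was at 3.85%, so the aged range of 0% to 37.8% spanned all other libraries. The summed neutrophil list mirrored these counts, with 131355 CPM in aged library 4 against 16317 in aged library 2 and 190 in exenatide-treated aged library 2. Nonclassical monocyte-like cells were the most numerous sub-cluster in 7 of the 9 libraries, the exceptions being young adult library 2 (4 cells, against 8 microglia-like cells) and aged library 4 (7 cells, against 10 granule-type neutrophil-like cells). *Camp* and *Ngp* were both at 0 UMIs in young adult library 1, although its *S100a8* level was the second highest and its *Retnlg* level, 6361 CPM, was the highest of all.

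**Figure D3:**
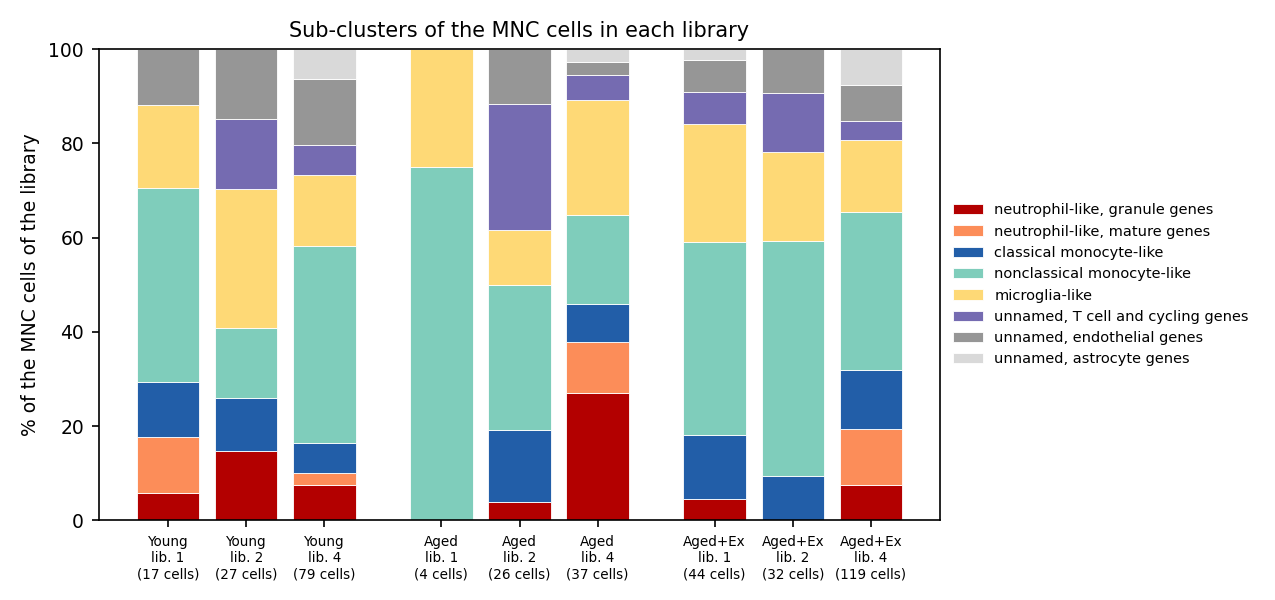
Make-up of the MNC cells of each library (% of its MNC cells, with cell numbers under each bar; Aged+Ex stands for exenatide-treated aged, and lib. for library). Neutrophil-like cells took 37.8% of aged library 4 but 0% of exenatide-treated aged library 2, and aged library 1 rests on 4 cells.

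Whether the cells became more frequent with age or with exenatide was asked from their share of all cells in a library. The share was 0.230%, 0.295% and 0.526% in young adult libraries 1, 2 and 4, 0.426%, 0.438% and 0.673% in the same numbers of the aged group, and 0.461%, 0.432% and 1.02% in the exenatide-treated aged libraries. The means were 0.350% ± 0.156, 0.513% ± 0.139 and 0.638% ± 0.332 (SD, n = 3 libraries each), and the ranges of the groups overlapped. Aged minus young adult was 0.162 points (exact permutation test, two-sided, p = 0.3, adjusted p = 0.6 over 4 share comparisons), a difference seen in all 3 pairs of equal library number, and it was 0.0820 without aged library 4 and 0.25 without young adult library 4. Exenatide-treated aged minus aged was 0.125 points (exact permutation test, p = 0.6, adjusted p = 0.8), and without exenatide-treated aged library 4 it was -0.0663. With 3 libraries a group the smallest possible p is 0.1, so no difference could have passed 0.05. As a share of MNC, MAC and MG cells together the means were 1.17% ± 0.70, 2.11% ± 0.77 and 2.21% ± 1.08. In each group library 4 had the highest share of the 3.

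**Figure D4:**
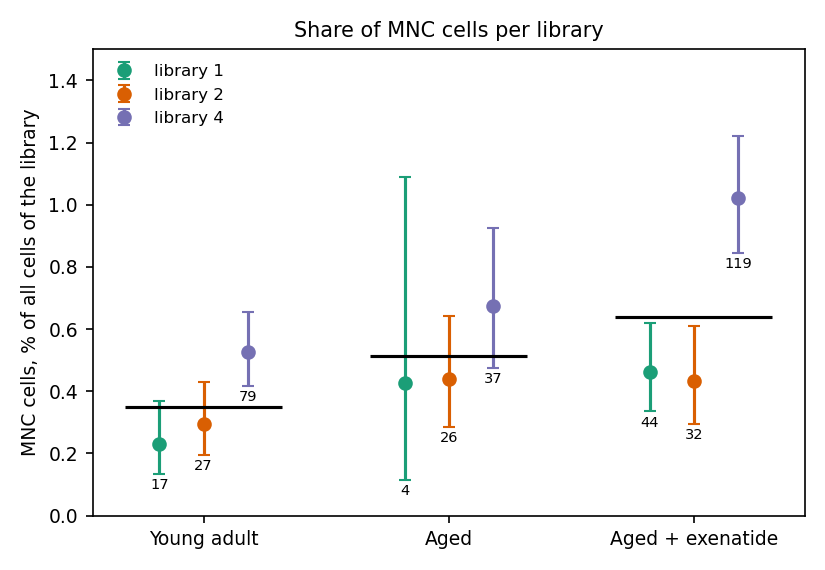
Share of MNC cells among all cells of each library (%). Points are libraries with 95% exact binomial intervals, numbers under them are MNC cells, and horizontal bars are group means of 0.350%, 0.513% and 0.638%; library 4 was highest in every group.

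For aged against young adult libraries, 1037 genes were tested in the summed MNC counts, and none was a differentially expressed gene (DEG; FDR under 0.05 and absolute natural log fold change, *lnFC*, over 0.1). EdgeR gave 0 DEGs (0% of genes), with 34 genes (3.28%) at an unadjusted p under 0.05, and DESeq2 also gave 0, with 64 of 13548 genes. With the library number as a block, 0 genes passed as well, with 70 (6.75%) at an unadjusted p under 0.05. Genes with the smallest p in each direction are given as values. Levels called scaled CPM here were adjusted between libraries by edgeR's TMM factors, which trim away genes of extreme abundance or change before the libraries are aligned. *Ccl5*, a T cell and monocyte chemokine gene, was at 0, 0 and 144 scaled CPM in young adult MNC and 966 and 955 in aged MNC (*lnFC* 2.55 ± 0.70, SE, edgeR adjusted p = 0.998). Its aged values came from 3 and 5 cells, and 43 of its 139 UMIs from 1 cell of aged library 4. Without the filter on low counts *Ccl5* passed (edgeR adjusted p = 1.06e-05), as did *Nkg7* (edgeR adjusted p = 0.00214). *Ccl3*, a macrophage inflammatory protein gene, was at 1108, 1363 and 618 against 2432 and 2411 scaled CPM (*lnFC* 0.87 ± 0.27, edgeR adjusted p = 0.998). In aged library 2, 57 of the 73 *Ccl3* UMIs came from 1 microglia-like cell. Cells that held over 50% of a library's UMIs of *Apoe*, *Ccl3* or *Ccl4* numbered 4, and with these left out, a choice made after seeing the data, *Ccl3* was at 1138, 1019 and 633 against 584 and 2546 scaled CPM, an overlap (*lnFC* 0.56). *Vdac2*, *Hmgn1* and *Sri* were the other genes with the smallest p above 0, with *lnFC* of 0.92, 0.84 and 0.83.

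In the other direction, *Ptn*, which encodes the growth factor pleiotrophin, was at 381, 332 and 917 scaled CPM in the young adult and 99.9 and 47.0 in the aged libraries (*lnFC* -2.12 ± 0.49, edgeR adjusted p = 0.911). Of its 265 UMIs, 77 were in the sub-cluster with endothelial genes, 67 in that with astrocyte genes and 57 in nonclassical monocyte-like cells. *Apoe*, the apolipoprotein E gene, was at 2631, 6616 and 4329 against 1233 and 1033 scaled CPM (*lnFC* -1.39 ± 0.35, edgeR adjusted p = 0.911). Neither gene's groups overlapped, and neither passed the test, although without the filter on low counts both did (edgeR adjusted p = 0.00200 for *Apoe* and 0.0115 for *Ptn*). In young adult library 2, however, 162 of the 199 *Apoe* UMIs came from 1 cell, of the sub-cluster with endothelial genes. Without the 4 cells named above *Apoe* was at 2702, 1310 and 4431 against 1350 and 1091 scaled CPM, so that the groups overlapped (*lnFC* -0.85), and in monocyte-like cells alone (libraries with 5 or more, added after seeing the data) its *lnFC* was -0.13. *Cldn5* (-1.46), *Id3* (-1.67) and *Sgms1* (-1.86) were the other genes with the smallest p below 0, and *Cldn5* is a gene of endothelial tight junctions.

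Among gene lists, 0 members of any list passed the test, and 90 of all 1037 genes (8.68%) were higher and 61 (5.88%) lower in both aged libraries than in every young adult library. Cell cycle genes had an *lnFC* above 0 in 9 of 9 tested members (median 0.54, against -0.01 over all genes), and 5, *Top2a*, *Hmgb2*, *Stmn1*, *H2afz* and *Cenpa*, did not overlap. *Top2a* was at 208, 399 and 188 scaled CPM in young adult MNC and 433 and 736 in aged MNC. The summed list was at 4048, 5187 and 3617 CPM in the young adult group and 6537 and 7764 in the aged. Of 11 inflammatory genes, *Ccl3*, *Ccl4*, *Ccl5* and *Nfkbiz* were higher without overlap (list median 0.27). However, the same cell of aged library 2 gave most of its *Ccl3* UMIs (57 of 73) and of its *Ccl4* UMIs (110 of 166). Without the 4 cells both genes overlapped. *Ccl3*, *Ccl4* and the cycle genes are also those of the microglia-like sub-cluster. It held 3 of 26 and 9 of 37 cells in aged libraries 2 and 4. In young adult libraries 1, 2 and 4 it held 3 of 17, 8 of 27 and 12 of 79. The cycle genes are likewise those of the unnamed sub-cluster with T cell genes and of the neutrophil-like cells with granule genes. The former held 7 of 26 and 2 of 37 aged cells, and 0 of 17, 4 of 27 and 5 of 79 young adult cells. The latter held 1 of 26 and 10 of 37 aged cells, and 1 of 17, 4 of 27 and 6 of 79 young adult cells. None of these sub-clusters had a higher share in both aged libraries than in every young adult library. The 9 neutrophil genes tested had a median of 0.24, and 0 of them were without overlap.

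Genes of astrocytes and endothelium had negative values. All 4 astrocyte genes tested (median *lnFC* -1.06) and all 6 endothelial genes (median -0.73) were below 0, and of these *Cldn5* alone did not overlap. The summed endothelial list was at 5730, 3185 and 6977 CPM in young adult MNC and 4246 and 741 in aged MNC, led throughout by *Bsg*, the basigin gene. Of the sub-clusters that joined these genes to leukocyte genes, the endothelial one held 3 of 26 and 1 of 37 cells in aged libraries 2 and 4. In young adult libraries 1, 2 and 4 it held 2 of 17, 4 of 27 and 11 of 79. The one with astrocyte genes held 0 of 26 and 1 of 37 aged cells, and 0 of 17, 0 of 27 and 5 of 79 young adult cells. The part of these sub-clusters in the values was not tested. *Ptn* and *Cldn5* have no value in monocyte-like cells alone. MHC class II genes were above 0 in 5 of 5 (median 0.14), but the aged libraries lay apart, at 6872 and 1203 CPM in sum against 447, 5211 and 2927 in young adult MNC, and 0 members were without overlap. The 26 ribosomal protein genes (median 0.01) and 22 respiratory chain genes (median -0.03) sat at the median of all genes, as did the 5 classical (-0.05) and 5 nonclassical (-0.15) monocyte genes to within 0.2.

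Exenatide-treated aged libraries were compared with the same 2 aged libraries, so the 2 comparisons are not independent, and a low or high aged value enters both with opposite sign. EdgeR gave 0 DEGs among 1037 genes, with 38 (3.66%) at an unadjusted p under 0.05, and DESeq2 gave 0, with 66 of 13548. With the library number as a block, edgeR gave 0, with 72 (6.94%) at an unadjusted p under 0.05. *Apoe* was at 7328, 6121 and 2857 scaled CPM in the exenatide-treated aged libraries, all above the aged values of 1233 and 1033 (*lnFC* 1.57 ± 0.35, edgeR adjusted p = 0.656, and 0.0908 with the block). *Mt1*, a metal-binding metallothionein gene, was at 1258, 2596 and 2181 against 466 and 454 (*lnFC* 1.47 ± 0.42, edgeR adjusted p = 0.770, and 0.0600 with the block). Groups did not overlap for either of these, and neither passed the test, although without the filter on low counts *Apoe*, *Mt1*, *Clu* and *Ptn* did (edgeR adjusted p = 8.52e-05 for *Apoe* and 0.0117 for the others). For *Apoe*, 258 of the 402 UMIs of exenatide-treated aged library 1 came from 1 microglia-like cell. Without the 4 cells its values were 2729, 6040 and 2808 against 1350 and 1091 scaled CPM, still apart (*lnFC* 1.15), while in monocyte-like cells alone (libraries with 5 or more) the *lnFC* was 0.19 for *Apoe* and 2.30 for *Mt1*. *Clu* (2.54) and *Ptn* (2.07) were also among the genes with the smallest p above 0. Astrocyte genes were above 0 in 4 of 4 tested (median 2.11), with *Aldoc*, *Slc1a3* and *Gja1* without overlap, beside a background of 99 of 1037 genes (9.55%). The summed astrocyte list was at 603, 2638 and 2706 CPM in the exenatide-treated aged libraries against 103 and 322 in the aged group, led by *Slc1a2* in 3 of these 5 libraries, and its part in the other values was not tested.

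Lower values were those of *Ccl3* (1021, 641 and 1165 scaled CPM against 2432 and 2411, *lnFC* -0.93 ± 0.27, edgeR adjusted p = 0.770) and *Ccl12* (164, 192 and 70.8 against 233 and 783, *lnFC* -1.44 ± 0.43, edgeR adjusted p = 0.770), chemokine genes of the microglia-like cells, with *Nusap1*, *Cks1b* and *Vdac3* after them at *lnFC* of -1.31, -1.17 and -0.91. Without the 4 cells *Ccl3* was at 929, 632 and 1145 against 584 and 2546 scaled CPM, an overlap in which aged library 2 was lowest (*lnFC* -0.56). For *Ccl12*, 29 of the 50 UMIs of aged library 4 came from 1 microglia-like cell, and a value without that cell was not computed. *Nusap1* and *Cks1b* are genes of dividing cells. Cell cycle genes were below 0 in 9 of 9 tested (median -0.63, against 0.04 over all genes), and *Hmgb2*, *Birc5*, *Pclaf*, *H2afz*, *Ube2c* and *Cenpa* were lower without overlap, beside 65 of all 1037 genes (6.27%). The list was at 4138, 4943 and 2874 CPM in sum, all below the aged sums of 6537 and 7764. Of the sub-clusters with these genes, the unnamed one with T cell genes held 3 of 44, 4 of 32 and 5 of 119 exenatide-treated aged cells. Its aged counts were 7 of 26 and 2 of 37. The neutrophil-like one with granule genes held 2 of 44, 0 of 32 and 9 of 119, against 1 of 26 and 10 of 37. For the microglia-like one the counts were 11 of 44, 6 of 32 and 18 of 119, against 3 of 26 and 9 of 37. Of the 9 neutrophil genes tested 8 were below 0 (median -1.11), but the list summed to 16317 CPM in one aged library and 131355 in the other, and *Camp* was the only member without overlap. *Plac8* and *Ly6c2*, of the 5 classical monocyte genes tested, were higher without overlap (list median 0.31). The receptor through which exenatide acts was not among the genes tested, and the 3 tested members of its signalling list had a median of -0.40.

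A different question is whether the aged against young adult change of a gene in MNC cells differed from that in resident cells of the same libraries. Against MG, 3 of 10493 genes (0.0286%) passed for the difference of the 2 *lnFC*, with 368 genes (3.51%) at an unadjusted p under 0.05. *Apoe* was at 1544, 3887 and 2936 scaled CPM in young adult MNC and 691 and 714 in aged MNC, while its mean in MG was 2382 ± 809 (SD, n = 3) in the young adult and 4151 ± 538 (n = 2) in the aged group. The difference of the changes was -1.91 ± 0.27 (SE, edgeR adjusted p = 5.98e-05). The 3887 of young adult library 2 rested on the cell with 162 of 199 UMIs, and without the 4 cells the MNC values were 1586, 754 and 2956 against 746 and 734 (difference -1.35 ± 0.24, edgeR adjusted p = 0.000141). *Lyz2* was at 8291, 5156 and 6060 against 2410 and 6534 scaled CPM in MNC, and at 611, 659 and 788 against 1205 and 1221 in MG (difference -1.03 ± 0.20, edgeR adjusted p = 0.00123). In MNC the *Lyz2* ranges overlapped, whereas both MG groups were tight and apart. *Thy1*, a T cell and neuronal surface gene, was the third, with a difference of 4.02 ± 0.92 (edgeR adjusted p = 0.0419). It rested on 1 UMI in the young adult MNC cells and 13 UMIs in 3 cells of the aged ones. With the block, *Apoe* had a difference of -1.73 (edgeR adjusted p = 0.0574) and *Thy1* was lost (edgeR adjusted p = 1), *Lyz2* passed, and *Ccl3*, *Ccl4* and *Rgs1* passed with differences of 0.82, 1.04 and 1.49. With another normalization (relative log expression, RLE), *Apoe* had -1.92 with an edgeR adjusted p of 0.975. The *Apoe* call was also lost without young adult library 1 (difference -1.97, edgeR adjusted p = 0.998), aged library 2 (-1.98) or aged library 4 (-1.82). The *Lyz2* call was lost without young adult library 1 (-0.81, edgeR adjusted p = 0.109) or aged library 2 (-0.56). The *Thy1* call was lost without any 1 of the 5 libraries (3.74 to 7.54). Leaving out aged library 2 or 4 left 1 aged library, and the spread then came from the other groups.

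**Figure D5:**
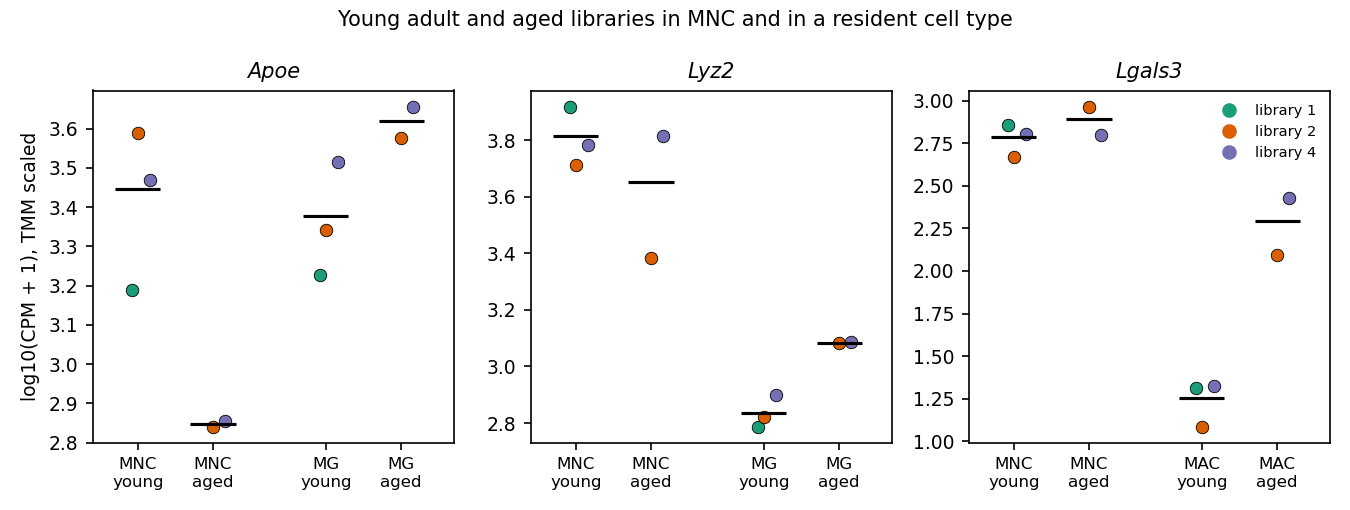
*Apoe* and *Lyz2* in MNC and MG, and *Lgals3* in MNC and MAC, in young adult and aged libraries, as log10(CPM + 1) after TMM scaling. Points are libraries, coloured by number, and bars mark the mean CPM of a group. Aged MNC lay below young adult MNC for *Apoe*, where 1 cell gave 162 of the 199 UMIs of young adult library 2. *Lgals3* in MAC was at 124 and 267 scaled CPM (10 and 31 UMIs) in the aged libraries against 11.2 to 20.1 (2 to 12 UMIs) in the young adult.

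Against MAC, 2 of 2708 genes (0.0739%) passed, with 111 (4.1%) at an unadjusted p under 0.05, and both also passed with the block. *Lgals3*, encoding the phagocyte lectin galectin-3, was at 722, 464 and 636 scaled CPM in young adult MNC and 924 and 630 in aged MNC, an overlap, and at 19.6, 11.2 and 20.1 against 124 and 267 in MAC (difference -2.18 ± 0.39, edgeR adjusted p = 0.00103). The MAC values of *Lgals3* rested on 4, 2 and 12 UMIs in the young adult and 10 and 31 in the aged libraries. That of young adult library 2 was thus under the floor of 3 counts. The MNC level was above the MAC level in every library. *Cd209a*, the lectin gene of monocyte-derived dendritic cells, was at 226, 100 and 98.8 against 396 and 1492 scaled CPM in MAC, and had 0, 2 and 5 UMIs in the young adult and 0 and 0 in the aged MNC sums (edgeR adjusted p = 0.0106), so it entered the test through MAC, and no difference in MNC can be drawn from it. Both calls were lost without aged library 4 (*Lgals3* difference -1.51), a fit with 1 aged library whose spread came from the other groups. That of *Cd209a* was also lost without young adult library 4 (edgeR adjusted p = 1).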

How the data were processed

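Droplet-based 3′ RNA sequencing (10x Chromium) was done on dissociated mouse brain. Per the submitters' processing notes the authors used Cell Ranger 3.0.0, Seurat 3.0.1 and build mm10, and by the study's methods they removed cells of extreme UMI or gene number and clusters that mixed markers of cell types. The authors deposited 1 matrix of natural log values, ln(1 + 10000 × UMIs of a gene / UMIs of the cell), and a cell table with the total UMI count, library, cell type and fraction of mitochondrial UMIs of each cell. Counts had been assumed when the tests were set; multiplying back by the deposited totals gave whole counts for 58404382 of 58404382 entries (tolerance 1e-06). Members and gene lists were chosen with earlier results of these data known.

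Counts of the MNC cells were summed per library where 10 or more cells were present, filtered by edgeR's filterByExpr, scaled by TMM factors and fitted over all 3 groups with edgeR 4.0.16 (robust quasi-likelihood, R 4.3.3). P-values were adjusted by Benjamini-Hochberg over all genes tested. *lnFC* is the natural log of the fold change, and its SE was derived from the F statistic. Differences between cell types were tested as an interaction with a term for each library. Shares were compared by exact permutation (scipy 1.17.1). DESeq2 1.42.0 was an alternative. Library totals ranged from 2550943 to 21920194 UMIs. Sub-clusters came from Ward clustering on 15 principal components of 1000 variable genes. No doublet caller was run.

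Named genes were, by rule, the given markers and up to 5 genes of a list by mean CPM or any member past the test, 15 genes high in MNC and 10 high in MAC or MG, up to 10 DEGs in a direction or, where fewer than 5 passed, the 5 genes of smallest p in a direction, and the leading 10 genes of a sub-cluster. Others were named after their values were seen. Some genes that met the rule are not reported here. Libraries of equal number share a batch, of a kind not stated, in the deposited cell table and are therefore paired. Deviations from the group means correlated at 0.0923 to 0.491 (median 0.309, 7 pairs) for equal numbers and -0.491 to 0.229 (median -0.185, 14 pairs) for unequal ones. Deviations within a group cancel out, so those of the 2 aged libraries are mirror images. The values for equal and unequal numbers are thus not independent, and their contrast is no separate evidence of pairing. On simulated data with 200 genes changed, the aged against young adult fit (1063 genes) recovered 5.49% of 2-fold and 55.4% of 4-fold changes, so changes of 2-fold were mostly not detectable.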

Additional observations from a re-analysis of the deposited data

Results flagged for a closer look

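For *Apoe*, *Lyz2* and *Lgals3* the aged against young adult change in MNC cells differed from that in a resident type. This was by edgeR's interaction test, on the same libraries. *Apoe* differed from MG by -1.91 on the *lnFC* scale (-1.35 without the 4 cells that held most of a library's *Apoe*, *Ccl3* or *Ccl4*) and *Lyz2* by -1.03. *Lgals3* differed from MAC by -2.18, where its MAC sums held 4, 2 and 12 UMIs in the young adult and 10 and 31 in the aged libraries. *Thy1* passed against MG as well, with a fitted value of 4.02. It rested on 1 UMI in young adult MNC cells and 7 and 6 UMIs in aged libraries 2 and 4. No change in MNC is drawn from it. *Cd209a* also passed against MAC, with a fitted value of -6.01, but with 9 UMIs in all MNC cells it entered through MAC and says nothing of a change in MNC. Each call was lost on leaving out at least 1 library, which for *Lgals3* was aged library 4 and left 1 aged library. With the libraries paired by number those of *Apoe* (edgeR adjusted p = 0.0574) and *Thy1* (edgeR adjusted p = 1) were lost too. The *Apoe* call was also lost with RLE scaling. In monocyte-like cells alone the aged against young adult *lnFC* of *Apoe* was far smaller in size than in all MNC cells. Summed genes of astrocytes and endothelium also differed between these MNC libraries, and their part in the *Apoe* difference was not tested. No group held the 4 libraries needed to single out an extreme library.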

How the results depend on the processing

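No gene passed in the aged against young adult or the exenatide-treated aged against aged comparison with RLE scaling, 20 or more or 5 or more cells a library, only the 2 groups, DESeq2, the replicate block (0 and 0) or, added after seeing the data, 4 or more cells or without the 4 cells with most of a library's *Apoe*, *Ccl3* or *Ccl4*. Without the filter on low counts 4 and 11 genes passed. Leaving out 1 library gave 0 in each comparison wherever 2 or more were left in each group. Without aged library 4, *Igha*, *Igkc* and *Jchain* passed in both comparisons. That fit had 1 aged library, with its spread from the other groups, and nothing is drawn from it. Monocyte-like cells alone gave 0 and 0, also with 5 or more cells a library, and with the replicate block, added after seeing the data, 8 and 23, from which nothing is drawn since 1 young adult library and 1 residual degree of freedom were left. With the same single young adult library *Ccl3* changed sign in monocyte-like cells, to -2.85 and with the block -2.32 for aged against young adult, and to 1.51 and 1.59 for exenatide-treated aged against aged; the cause was not tested.

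Differences from MG numbered 1 with 20 or more cells, which is the same as leaving out young adult library 1, 4 with the replicate block and 1 to 4 on leaving out 1 library. Those from MAC numbered 4 with 20 or more cells, 6 without the filter, 2 with the block and 0 to 7 on leaving out 1 library, with 4, 6, 7 and 0 without young adult library 1, young adult library 2, aged library 2 and aged library 4. The exenatide difference in share ran from -0.0663 to 0.228 points, and pairing by replicate number gave exact p = 0.25 and 0.5 for the 2 share comparisons, where 0.25 is the smallest possible.

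Shares of cells by list depended on the number of genes asked for. With 1 gene they were 75.3% (classical monocyte), 76.1% (nonclassical), 42.6% (neutrophil), 8.83% (T cell) and 65.2% (microglia), with 3 genes 26.5%, 33.2% and 21.6% for classical, nonclassical and microglia. With 2 genes, in cells thinned to 500 UMIs, these 3 were 24.7%, 25.2% and 20%. Few cells, 2 aged libraries and shallow sums limit all comparisons.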

Other observations

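Lymphoid and antibody genes came from very few cells. *Igha* (138 of 138 UMIs), *Jchain* (65 of 65) and *Igkc* (407 of 423) were held by 1 cell of aged library 2, as in a plasma cell, and this cell lay in the sub-cluster with T cell and cycling genes. *Trbc2*, the T cell receptor β constant gene, had 33 UMIs in 9 cells, 21 of them in 1 cell of aged library 4. *Gzma*, the granzyme A gene of cytotoxic lymphocytes, had 18 UMIs in 2 cells, 12 of them in 1 cell of aged library 2, and *Nkg7*, another gene of cytotoxic granules, had 55 UMIs in 10 cells, 21 of them in 1 cell of aged library 4. The summed T cell list was 618 and 1181 CPM in aged libraries 2 and 4, against 26.3 to 144 in the young adult and 110 to 499 in the exenatide-treated aged libraries.

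Of the other lists, the 9 S100 and annexin genes tested had a median *lnFC* of 0.18 for aged against young adult and -0.46 for exenatide-treated aged against aged, and the 9 interferon response genes -0.18 and 0.19. The 8 chemokine and adhesion receptor genes had medians of -0.11 and 0.03. The 4 metallothionein and glucocorticoid response genes had -0.78 and 0.95, and the 16 immediate early genes, which dissociation can raise, -0.01 and -0.13. *Ttr*, the transthyretin gene of the choroid plexus, was at 4743, 8511 and 3390 scaled CPM in young adult MNC, 2632 and 2176 in aged MNC and 3080, 7274 and 4864 in exenatide-treated aged MNC, and 352 of the 385 cells held a UMI of it. It was not particular to MNC, with a mean of 3321 CPM there, 2618 in MAC and 2140 in MG. A UMI of the choroid and ependymal list, which *Ttr* led, was in 91.7% of MNC, 91.0% of MAC and 87.8% of MG cells. The shares were 90.8% in astrocytes and 88.8% in endothelial cells.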
